A study of Danio rerio with 36 samples.

Results

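The genes rag1, rag2, ikzf1, gata3, lck and zap70 act at successive steps of T cell development, and the methylation of their loci was described in 18 zebrafish. The 6 genes were chosen by name and not by their values, with earlier results of these data known, and the locus of each was the stretch from the first to the last G2 sperm differentially methylated region (DMR) that the deposited table assigns to it at a distance of at most 5 kb. The same rule gave 20717 gene loci in all. Whole bodies and sperm had been bisulfite-sequenced over the whole genome, with 3 fish in each of 6 groups. All fish were of mixed background. Whole body DNA came from dnmt1+/+ and dnmt1 m/m fish of 18 days post fertilization (dpf), and G2 sperm came from dnmt1+/+ and dnmt1 m/m males. The labels write the mutant genotype as dnmt1-/- and the sperm generation as 1, and the allele is a viable hypomorph. The remaining sperm came from dnmt1+/+ males of generation 4, of which the G4* males transmit impaired larval T cell development and the G4+ males do not. RNA was not analysed here, and the labelled tissues were not checked against marker expression. In whole body DNA, a different share of a cell type and a different methylation level within cells cannot be told apart.

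The maintenance methyltransferase Dnmt1 copies methylation of CpG dinucleotides to the new DNA strand after replication, and cells with reduced activity lose methylation as they divide. In zebrafish, T cell progenitors settle in the larval thymus, rearrange their antigen receptor genes with the Rag1 and Rag2 recombinase, and then signal through the T cell receptor. Ikzf1 (Ikaros) is a zinc finger transcription factor of early lymphoid cells, and Gata3 is a transcription factor of early T cells that also acts outside the blood system. Lck and Zap70 are the tyrosine kinases that act first below the T cell receptor. Promoters rich in CpGs are usually unmethylated in vertebrates, whereas gene bodies are mostly methylated.

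Positions are in the danRer10 (GRCz10) build. The recombinase genes are neighbours on chromosome 25. The rag1 locus (ENSDARG00000052122) spanned 8928113 to 8931389 with 75 CpGs and 2 DMRs, and the rag2 locus (ENSDARG00000052121) spanned 8934174 to 8935462 with 35 CpGs and 2 DMRs. The ikzf1 locus (ENSDARG00000013539) lay on chromosome 13 from 15823315 to 15851441, with 334 CpGs and 4 DMRs, of which 1 lies wholly outside the gene. The gata3 locus (ENSDARG00000016526) lay on chromosome 4 from 25065021 to 25069313, with 94 CpGs and 3 DMRs, and covers the 3′ end of the gene at 25065312. The lck locus (ENSDARG00000102525) lay on chromosome 17 from 25336035 to 25367480, with 409 CpGs and 6 DMRs, and holds the 5′ end of the gene at 25363984. Of its DMRs, 1 lies wholly outside the gene, upstream of this end. The zap70 locus (ENSDARG00000015752) lay on chromosome 8 from 20364318 to 20381585, with 205 CpGs and 4 DMRs. No other gene locus overlapped any of the 6. The gene ends were calculated from the distances in the deposited table and can be off by 1 base. All 21 DMRs of the 6 genes are less methylated in mutant G2 sperm, which is the contrast in which they were called.

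The loci differed in CpG density. The recombinase loci were dense, with 22.9 CpGs per kb in rag1 and 27.2 in rag2, and gata3 had 21.9. The long loci were sparse, with 11.9 CpGs per kb in ikzf1, 13.0 in lck and 11.9 in zap70, so that at most 5.67% of all gene loci were sparser than these. The short loci also consist largely of DMRs, which hold 63 of the 75 CpGs of rag1 and all 35 of rag2, against 68 of the 334 CpGs of ikzf1. A CpG had a value in a fish only where coverage sufficed. Between 48.6% (rag2) and 100% (also rag2) of the CpGs of a locus had one, and the depth per CpG is unknown. Over the genome, the mean level was 80.4% to 81.3% in dnmt1+/+ and 53.4% to 53.7% in dnmt1 m/m whole body. It was 89.5% to 90.1% in the sperm of all 9 males without the mutation. In dnmt1 m/m sperm it was 58.8%, 70.0% and 67.7%, so that the first male stands apart.

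To see the 6 groups side by side, levels were first averaged over the CpGs that had a value in each of the 18 fish. In rag2, for example, the single CpG at 8934761 was methylated in 66.7%, 64.3% and 72.7% of the reads of the dnmt1+/+ whole bodies and in 46.2%, 33.3% and 42.9% of those of the mutants. In sperm, the same CpG was at 100%, 94.7% and 100% in dnmt1+/+ males and at 50.0%, 80.0% and 64.7% in dnmt1 m/m males. In G4 sperm it was at 96.0% to 100% in all 6 males. The CpG of gata3 nearest the middle of its locus, at 25067009, was lower in mutant sperm, at 0%, 0% and 13.6% against 94.4%, 100% and 95.8% in dnmt1+/+ sperm. In whole body it was at 76.5%, 89.3% and 81.0% in dnmt1+/+ fish and at 25.0%, 23.8% and 14.3% in mutants. Both CpGs were chosen as the shared CpG nearest the middle of the locus, and they show how far single sites can depart from the locus mean. They are examples, and such CpGs of the other genes varied. That of lck was lower in mutants of both tissues, but that of rag1 stayed at 94.1% to 100% in mutant sperm. In ikzf1 it was at 0% to 18.2% in all 18 fish, and in zap70 the whole body groups overlapped.

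**Figure D1:**
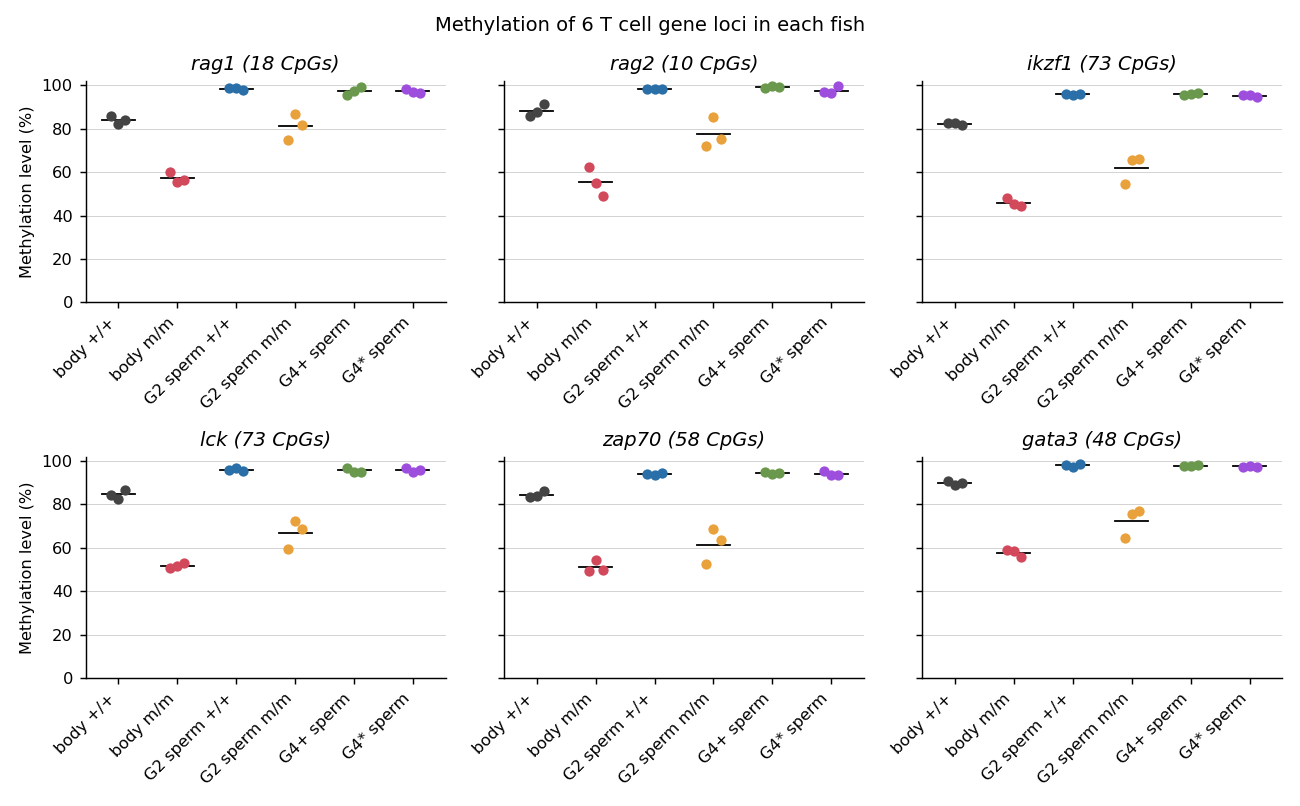
Methylation level (percent of reads methylated, vertical axis) of each of the 6 loci in each of the 18 fish (points), by group, over the CpGs shared by the 18 fish (10 in rag2 to 73 in ikzf1 and lck). Black bars are group means, and both mutant groups lie below the other groups of their tissue in every panel.

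In whole body, all 6 loci were less methylated in dnmt1 m/m than in dnmt1+/+ fish, by 26.5 to 34.6 percentage points. The test was limma on logit-transformed locus means, adjusted over all 18114 loci with at least 10 CpGs that had a value in all 6 fish. It called 99.9% of all loci lower in the mutants (18090 loci) and 0.0110% (2 loci) higher, so that a call says nothing particular about these 6. The median difference was −33.2 points over the 6 genes and −28.4 over all loci tested. No mutant overlapped a wild-type fish at any of the 6 loci, as at 99.9% of all loci.

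The recombinase genes had the smallest mean differences of the 6. For rag1, the core recombinase subunit, the dnmt1+/+ fish had levels of 84.9%, 82.8% and 85.9% and the mutants 60.9%, 57.5% and 55.8% over 25 CpGs. The difference was −26.5 points (SE 1.77, adjusted p = 2.8e-06 by limma). For rag2, its partner, the levels were 87.0%, 87.0% and 91.3% in dnmt1+/+ fish and 62.8%, 57.6% and 52.1% in mutants over only 11 CpGs. The difference was −30.9 points (SE 3.42, adjusted p = 3.2e-05 by limma), and the mutants spread most at this locus.

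The transcription factor loci followed. For ikzf1, the levels were 76.5%, 76.2% and 75.4% in dnmt1+/+ fish and 44.3%, 41.9% and 40.3% in mutants over 106 CpGs. The difference was −33.9 points (SE 1.22, adjusted p = 2.1e-07 by limma). This locus was the least methylated of the 6 in both genotypes, and only 6.48% of all loci were lower in dnmt1+/+ fish. For gata3, the levels were 90.3%, 89.3% and 89.3% in dnmt1+/+ fish and 57.9%, 58.1% and 55.4% in mutants over 56 CpGs, a difference of −32.5 points (SE 0.929, adjusted p = 9.8e-08 by limma). It was the most methylated of the 6 in dnmt1+/+ whole body.

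The kinase loci had the largest mean differences in whole body. For lck, the levels were 82.5%, 81.2% and 83.0% in dnmt1+/+ fish and 46.9%, 47.3% and 48.8% in mutants over 116 CpGs. The difference of −34.6 points (SE 0.772, adjusted p = 1e-07 by limma) was the largest of the 6. For zap70, the levels were 84.2%, 84.5% and 86.7% in dnmt1+/+ fish and 51.0%, 53.9% and 48.5% in mutants over 76 CpGs, a difference of −34.0 points (SE 1.76, adjusted p = 7.3e-07 by limma). The loss in lck exceeded that of 89.6% of all loci. The 95% intervals of the differences in ikzf1, gata3, lck and zap70 overlap, and their order was not tested and is not resolved. The interval of rag2, −42.2 to −19.7 points, overlaps those of all the others. That of rag1, −31.8 to −21.2 points, lies apart from that of lck, −36.7 to −32.4 points. The same fish underlie all loci, and the intervals are not a test of 1 locus against another.

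The loss extended over nearly all CpGs that could be compared. The 6 loci hold 1152 CpGs, and 390 of them had a value in all 6 whole bodies. Of these 390, 383 had a lower group mean in the mutants and 6 a higher one. All mutants lay below all wild-type fish at 316 of them (81.0%), against 74.5% of the CpGs of the genome. A level of at least 80% was seen at 291 of the 390 CpGs in dnmt1+/+ fish and at 13 in mutants, while the number at intermediate levels (over 20% and under 80%) went from 87 to 348. Most of these sites were thus partly methylated in the mutants, and 29 were at 20% or less, against 12 in dnmt1+/+ fish. The shares over the genome were not calculated for the counts by group mean and by level.

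The 6 loci touch 90 windows of 1 kb, and 32 of them held at least 5 shared CpGs and could be tested in whole body. Limma called all 32 lower, against 97.0% of 403104 windows of the genome. The losses ran from −46.2 to −5.34 points. The deepest was in ikzf1, at 15851001 to 15852000, where the level was 87.0% ± 4.00 in dnmt1+/+ fish and 40.8% ± 6.44 in mutants (SD, n = 3). In lck, the window from 25358001 to 25359000 fell from 84.8% ± 2.82 to 38.6% ± 3.16 (SD, n = 3). The smallest loss was in ikzf1 at 15836001 to 15837000, where the dnmt1+/+ fish were at only 13.0% ± 2.20 and the mutants at 7.63% ± 2.45 (SD, n = 3; adjusted p = 0.022 by limma).

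In G2 sperm, levels were averaged over CpGs with a value in all 6 males. They ran from 85.4% (ikzf1) to 98.4% (rag2) in dnmt1+/+ males and from 57.7% (ikzf1) to 82.7% (rag2) in dnmt1 m/m males. The low mean of ikzf1 depends on the CpGs used, of which 19 of 150 were at 20% or less in dnmt1+/+ males. Over the CpGs shared by the 18 fish, ikzf1 was at 95.9% in dnmt1+/+ males, and zap70 was the lowest of the 6, at 94.0%. In dnmt1 m/m males these loci were at 62.1% and 61.5%. Since the DMRs that bound the loci were called in this contrast, the differences are given with no test. At the 6 loci, the highest mutant male was below the lowest wild-type male, as at 99.8% of all 20717 loci. The median difference was −26.4 points over the 6 genes and −25.9 over all loci. The first mutant male was the lowest of the 6 males at each of the 6 loci, and at 98.7% of all loci.

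The recombinase loci kept more methylation in mutant sperm than the other members. For rag1, the level was 98.4%, 98.9% and 97.7% in dnmt1+/+ sperm and 73.2%, 86.1% and 82.7% in dnmt1 m/m sperm over 38 CpGs, a difference of −17.6 points. For rag2, it was 98.4%, 98.6% and 98.3% against 80.6%, 85.1% and 82.4% over 21 CpGs, a difference of −15.8 points. More negative differences were found at 88.6% of all loci for rag1 and at 93.2% for rag2. Over the 6 loci, 380 of 529 shared CpGs were lower in every mutant male than in every wild-type male, against 69.9% of the genome's CpGs. Of the 90 windows of 1 kb, 45 held enough shared CpGs. In 44 of these 45 every mutant male was lower, against 95.8% of the genome's windows. Single CpGs of the recombinase loci often remained high, and 21 of 38 CpGs in rag1 and 13 of 21 in rag2 were still at 80% or more in mutant sperm. Such CpGs were also found in the other members, at 29 of 68 in gata3, 48 of 161 in lck, 39 of 150 in ikzf1 and 21 of 91 in zap70. The share of the genome's CpGs at 80% or more in mutant sperm was not calculated.

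The other members lost about as much as the typical locus or more. For ikzf1, the level was 85.4%, 85.3% and 85.5% in dnmt1+/+ sperm and 50.5%, 60.7% and 61.9% in dnmt1 m/m sperm over 150 CpGs, a difference of −27.7 points. For gata3, it was 98.3%, 97.6% and 98.1% against 64.8%, 75.8% and 75.6% over 68 CpGs, a difference of −25.9 points. For lck, it was 96.5%, 96.8% and 95.0% against 62.7%, 74.0% and 71.1% over 161 CpGs, a difference of −26.9 points. The largest difference was in zap70, at −32.6 points, where the level was 94.6%, 94.7% and 95.5% in dnmt1+/+ sperm and 53.0%, 68.6% and 65.5% in dnmt1 m/m sperm over 91 CpGs. Without the first mutant male, the median over the 6 genes was −23.3 points.

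**Figure D2:**
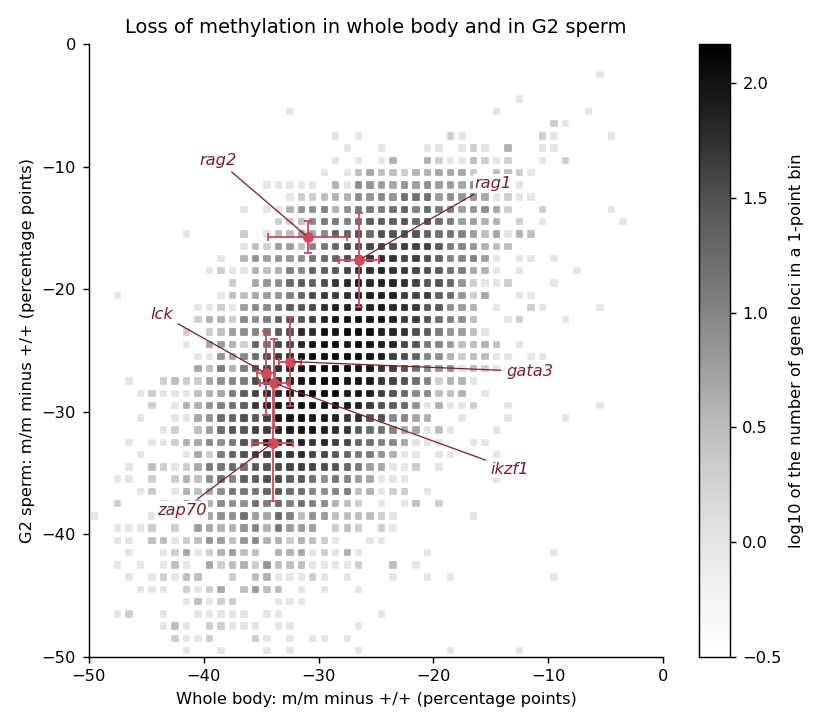
Difference between dnmt1 m/m and dnmt1+/+ (percentage points) in whole body (horizontal axis) and in G2 sperm (vertical axis). Red points are the 6 genes with standard errors over fish (n = 3 per group), and grey squares count gene loci in bins of 1 point. The points of rag1 and rag2 lie at −17.6 and −15.8 in sperm, above the other 4, which lie between −32.6 and −25.9.

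The fish of the whole body and G2 sperm comparisons differ, and the values can be set side by side over the CpGs shared by the 18 fish. For rag2, the mutant level was 62.9% of the wild-type level in whole bodies but 78.9% of it in sperm, and for rag1 these shares were 68.3% and 82.4%. The corresponding shares were 64.2% and 73.8% for gata3, 55.7% and 64.7% for ikzf1, 61.1% and 69.5% for lck, and 60.5% and 65.4% for zap70. The sperm share was thus higher than the whole body share by 16.1 points in rag2 and 14.1 in rag1, and by 4.88 to 9.62 points in the other 4 genes. The gaps rest on only 10 CpGs in rag2 and 18 in rag1. Over all gene loci, median levels were 86.4% in dnmt1+/+ and 57.1% in mutant whole body, and 96.6% and 69.2% in G2 sperm. By these medians, the sperm share was also the higher over all loci. Over the larger set of CpGs shared within each tissue, the shares were 57.9% and 72.0% for lck, 68.7% and 82.1% for rag1, and 65.0% and 84.0% for rag2. They were 55.5% and 67.6% for ikzf1, 63.8% and 73.6% for gata3, and 60.1% and 65.7% for zap70. On that set the gap of rag1 was no larger than that of lck, so that the order of the gaps depends on the CpGs used. Whether these gaps differ from those of other loci was not tested, since G2 sperm entered the choice of the loci. The loci of rag1 and rag2 are also dense. In whole body, loci with more CpGs per kb lost less, with a Spearman rho between density and difference of 0.50 over 18114 loci. This correlation is across genes, which share the same fish and are not independent replicates. The median difference in whole body was −32.3 points in the sparsest 20% of loci and −24.9 in the densest 20%. There, rag1 was at −26.5 and rag2, which is among the densest, at −30.9. The density of rag1, 22.9 CpGs per kb, is below the bound of the densest 20%, 23.8. The gata3 locus, with 21.9 CpGs per kb, was at −32.5. In G2 sperm the medians were −30.2 in the sparsest and −21.3 in the densest 20% (Spearman rho 0.48 over 20717 loci). In that comparison rag1 was at −17.6, rag2 at −15.8 and gata3 at −25.9. The part of density in the values of rag1, rag2 and gata3 was not tested.

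Single DMRs of a gene also differed among themselves. In gata3, the DMR from 25066066 to 25066689 fell from 97.9% to 85.4% in G2 sperm, while that from 25065021 to 25066030, only 36 bases away, fell from 98.0% to 66.1%. In whole body, the first went from 91.8% to 64.3% and the second from 90.0% to 54.6%. In zap70, the DMR from 20364318 to 20364832 had the largest difference of the 21 in G2 sperm, from 98.7% to 55.2%. The smallest was in rag2, at 8935167 to 8935462, from 98.0% to 86.0%. In whole body, 19 of the 21 DMRs held at least 5 shared CpGs, and all 19 were lower in every mutant than in every wild-type fish, by 23.3 to 45.4 points. The same held for 99.9% of all gene loci, and the share over all DMRs was not calculated.

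**Figure D3:**
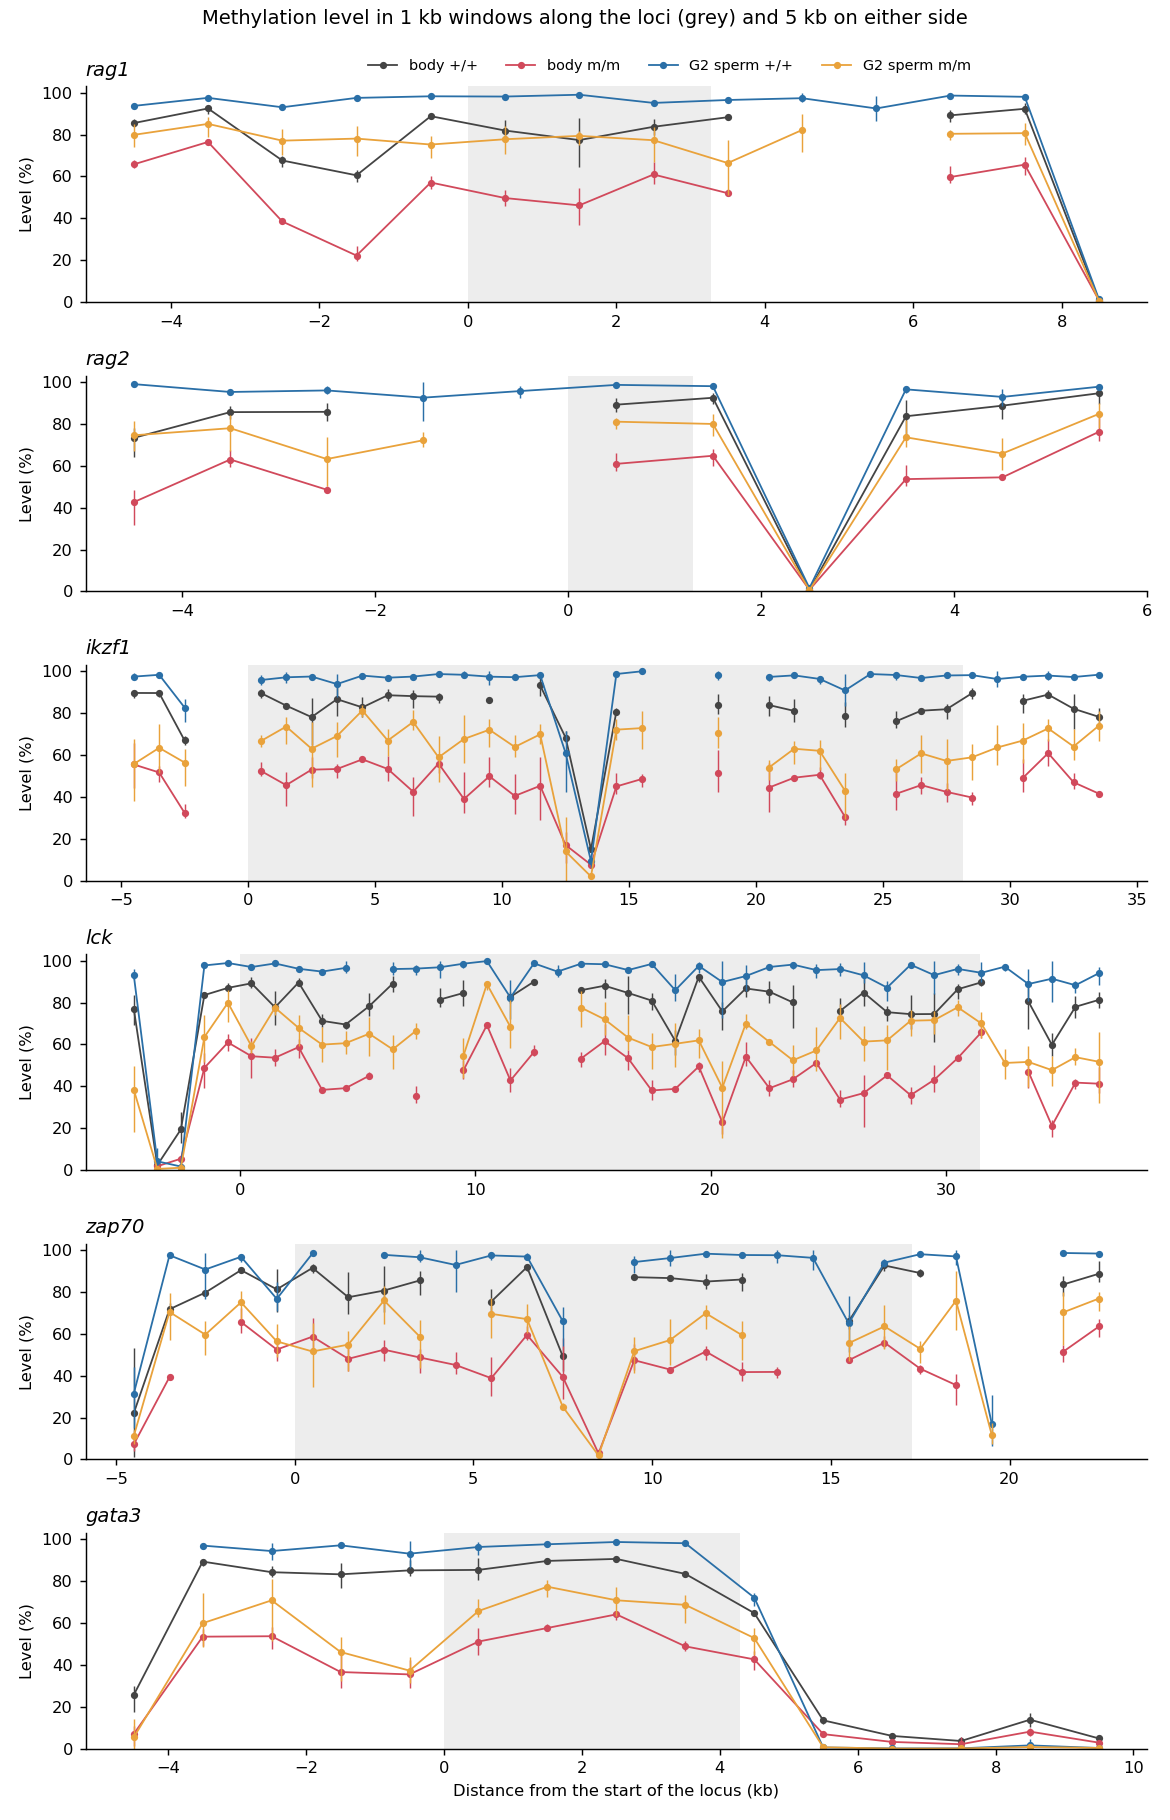
Methylation level (percent, vertical axes) in windows of 1 kb by distance from the start of each locus (kb, horizontal axes), for whole body and G2 sperm. Points are means of 3 fish, vertical lines run from the lowest to the highest fish, grey marks the locus, and windows with fewer than 3 CpGs in a fish are left out. Dips to near 0 are seen beside rag2, lck and gata3, and within zap70, where only the mutant groups have a point. The dip within ikzf1 is at 2.07% to 15.1%, and the lowest windows beside zap70 are at 7.21% to 31.4%.

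The loci contain or adjoin stretches that were nearly unmethylated in sperm. These were found as runs of at least 10 CpGs under 20% on average in the 9 males without the mutation, and the search was added after the levels had been seen. Each level of a run is the mean over the CpGs with a value in that fish, so that the CpGs differ between fish. In the ikzf1 run below, 14 to 39 CpGs had a value in a fish, with 9 shared by the 6 whole bodies. Within ikzf1, a run of 45 CpGs from 15836121 to 15836931 was at 13.5%, 8.30% and 8.87% in dnmt1+/+ whole body and at 3.47%, 3.58% and 1.44% in mutants. The groups did not overlap (two-sided exact permutation test, p = 0.1, which is the lowest value possible with 3 fish per group). They also did not overlap at 99.9% of all gene loci, and the share over such runs was not calculated. In G4+ sperm the run was at 0.895%, 4.11% and 0.707%, as the choice of the run by its sperm levels requires. Within zap70, a run of 16 CpGs from 20372130 to 20372700 was at 0% to 1.19% in all fish with at least 5 values.

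Beside gata3, a run of 213 CpGs began 672 bases from the locus, within the gene or upstream of it as the gene lies on the minus strand, and reached from 25069985 to 25075938. It was at 7.59%, 8.32% and 7.44% in dnmt1+/+ whole body and at 4.16%, 5.39% and 3.77% in mutants, with no overlap (two-sided exact permutation test, p = 0.1, the smallest possible). All 12 sperm samples were at 1.17% or less there. The share of such runs without overlap was not calculated. On the other side of gata3, a run of 28 CpGs from 25059145 to 25060779 was at 34.0%, 29.2% and 35.6% in dnmt1+/+ whole body, at 16.3%, 12.3% and 18.5% in mutants, and at 0.242% to 4.61% in sperm. Beside rag2, a run of 28 CpGs from 8936187 to 8937035 was at 0% to 3.57% in all fish with at least 5 values. A run of 31 CpGs beside lck, from 25332044 to 25333810, was at 16.2%, 8.79% and 11.9% in dnmt1+/+ whole body and at 4.13%, 4.38% and 2.85% in mutants. A run of 91 CpGs beside zap70, from 20357677 to 20359732, was at 1.71%, 1.21% and 2.65% in dnmt1+/+ whole body and at 2.60%, 0.963% and 3.08% in mutants, and the groups overlapped.

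The 5′ ends of the genes, also looked at after the levels had been seen, fell into different states. The 5′ end could be placed for rag1, ikzf1 and lck, and the CpGs within 500 bases on either side were averaged in each fish. The 5′ end of ikzf1, at 15863479 and 12038 bases outside the locus, was unmethylated everywhere, at 0% to 1.13% over 33 CpGs in all 18 fish. That of rag1, at 8926300 and 1813 bases outside the locus, was at 60.8%, 59.0% and 61.8% in dnmt1+/+ whole body and at 25.7%, 29.1% and 18.8% in mutants. In sperm it was at 97.3% to 98.5% in G2 dnmt1+/+ males, at 71.1%, 84.4% and 84.2% in dnmt1 m/m males, and at 97.3% to 99.3% in G4 males. In whole body the groups did not overlap, and neither did dnmt1+/+ whole body and G4+ sperm (two-sided exact permutation tests, p = 0.1 for each, the smallest possible). Mutant and dnmt1+/+ whole bodies also did not overlap at 99.9% of all gene loci. Between tissues, limma called 93.1% of all gene loci higher in G4+ sperm. The shares over gene ends were not calculated.

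Single CpGs at the rag1 5′ end show the same order. The CpG at 8926557, 257 bases downstream of the end, was at 70.0%, 45.5% and 27.3% in dnmt1+/+ whole body and at 21.1%, 19.0% and 15.0% in mutants. In sperm it was at 100% in all G2 dnmt1+/+ males and at 50.0%, 63.6% and 75.0% in dnmt1 m/m males. The 20 CpGs near this end were unevenly covered, and between 6 and 19 of them had a value in a fish, with 2 shared by all 6 whole bodies. The 5′ end of lck lies within its locus and was methylated, at 67.2%, 81.5% and 66.1% in dnmt1+/+ and 40.7%, 41.6% and 39.2% in mutant whole body over 23 CpGs, and at 92.2% to 93.5% in G4+ sperm.

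**Figure D4:**
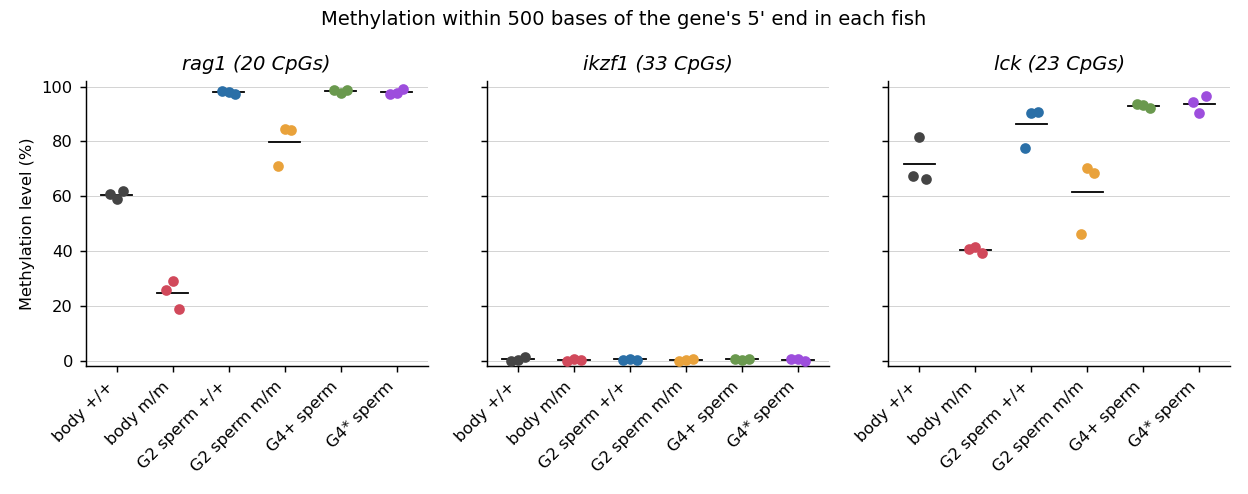
Methylation level (percent, vertical axis) within 500 bases of the 5′ end of rag1, ikzf1 and lck in each fish (points), with group means as bars. The end of ikzf1 is at or under 1.13% in all 18 fish, while that of rag1 is at 59.0% to 61.8% in dnmt1+/+ whole body and at 97.3% to 98.5% in G2 dnmt1+/+ sperm.

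The sperm of G4* and G4+ males asks whether the members differ between males that do and do not transmit the phenotype. No member passed the test. Of 19877 loci tested with limma, 17 (0.0855%) were lower and 5 (0.0252%) higher in G4* sperm, and none of the 6 genes was among them. Without the first G4+ or the first G4* male, 1 locus was lower. At an unadjusted p under 0.05, 0 of the 6 genes and 6.51% of all loci passed. None of the 6 genes had a deposited G4 DMR within its locus. The share of all gene loci without one was not calculated, so that this count says nothing particular about the 6. The nearest lay 6.06 Mb from rag1 and rag2, 15.7 Mb from ikzf1 and 17.3 Mb from zap70, and the chromosomes of lck and gata3 had none in the table used here.

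All 6 loci were highly methylated in both G4 groups, at 88.6% to 98.8% in single males. For rag1, G4+ males had levels of 97.5%, 98.1% and 98.0%, and G4* males 96.6%, 98.1% and 97.1%, over 59 CpGs. The difference was −0.604 points (95% interval −2.09 to 0.877). For rag2, it was 98.6%, 98.8% and 98.7% against 97.4%, 96.9% and 98.7% over 27 CpGs. The difference was −0.995 points (95% interval −3.25 to 1.26), and the third G4* male lay within the G4+ range. For gata3, all G4* males (97.4%, 97.7% and 97.6%) lay below all G4+ males (97.9%, 97.9% and 98.0%) over 77 CpGs. The difference was −0.342 points (95% interval −0.676 to −0.0082), with an adjusted p of 0.78 by limma, and 6.15% of all loci had all G4* males below.

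For ikzf1, G4+ males had levels of 92.9%, 94.8% and 93.3%, and G4* males 94.1%, 93.5% and 93.4%, over 173 CpGs, a difference of −0.011 points (95% interval −2.06 to 2.04). Over all CpGs with a value in a fish, which differ from male to male, this difference was 4.11 points. For lck, it was 96.7%, 96.3% and 96.4% against 97.2%, 96.2% and 96.5% over 196 CpGs, a difference of 0.168 points (95% interval −0.876 to 1.21). For zap70, it was 89.3%, 89.3% and 89.7% against 90.0%, 88.7% and 88.6% over 117 CpGs, a difference of −0.352 points (95% interval −2.15 to 1.45). Over all CpGs with a value in a fish it was −2.34 points. The groups overlapped in ikzf1, lck and zap70. The widest of the 6 intervals is that of rag2, which reaches −3.25 points.

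Windows of 1 kb gave no call either. The 6 loci touch 90 windows, and 52 of them held enough shared CpGs to be tested. Of these, limma called 0, against 0.0157% lower and 0.00734% higher of 763315 windows of the genome. The windows that could not be tested remain undescribed. Of the 52, 1 had an unadjusted p under 0.05, against 5.59% of all windows. It lies in gata3 at 25065001 to 25066000, with a level of 99.1% ± 0.633 in the G4+ males and 96.6% ± 0.540 in the G4* males (SD, n = 3; adjusted p = 0.80 by limma), and it covers the 3′ end of the gene. Within 500 bases of that end, over all CpGs with a value in a fish, the groups overlapped (two-sided exact permutation test, p = 0.5). The G4+ males were at 89.0%, 96.6% and 88.8% there, and the G4* males at 88.9%, 86.0% and 89.8%. The DMR at the place of the window, from 25065021 to 25066030, was the only 1 of the 21 in which all G4* males lay below all G4+ males, at 96.4% against 99.0%. Since this DMR was picked out after its values were seen, it is a description. All G4* males lay below all G4+ males at 6.15% of all gene loci, and the share over all DMRs was not calculated.

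**Figure D5:**
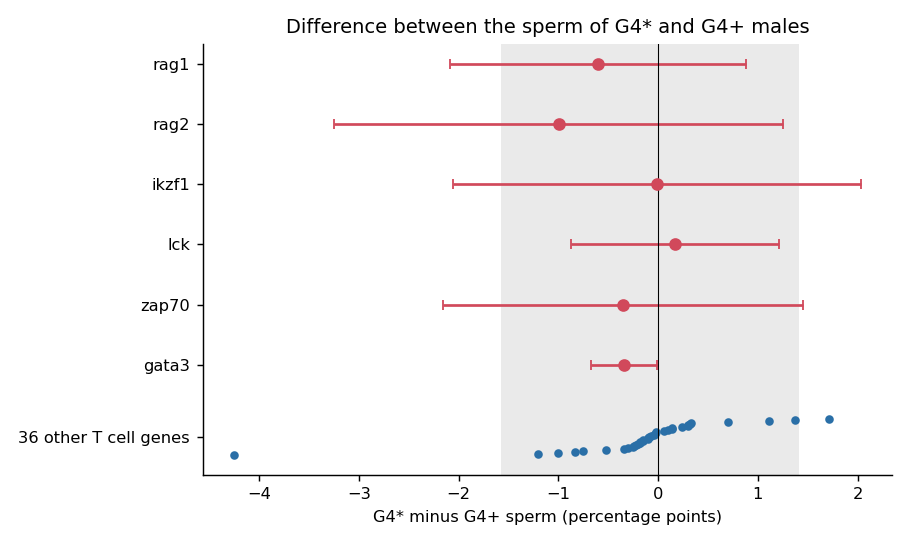
Difference in methylation level between G4* and G4+ sperm (percentage points, horizontal axis). Red points are the 6 genes with the 95% interval of the difference over 3 males per group, blue points are 36 other T cell genes, and grey spans the middle 90% of all loci. The 6 differences lie between −0.995 and 0.168.

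Sperm and whole body of fish without the mutation were compared in G4+ sperm and dnmt1+/+ whole body. They come from different data sets, ages and generations, and tissue cannot be told apart from these. All 6 loci were more methylated in sperm, by 7.97 to 12.8 points, and limma called all 6 higher, against 93.1% of 18304 loci tested (0.366% were lower). The median difference was 11.0 points over the 6 genes and 8.05 over all loci.

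The largest tissue difference was in rag1, the smallest in gata3. For rag1, the whole bodies were at 82.3%, 79.7% and 82.1% and the sperm samples at 93.3%, 93.8% and 95.3% over 28 CpGs, a difference of 12.8 points (SE 1.02, adjusted p = 5.2e-05 by limma). For lck, it was 84.1%, 82.4% and 84.6% against 96.4%, 96.1% and 95.8% over 115 CpGs, a difference of 12.4 points (SE 0.678, adjusted p = 6.6e-06 by limma). The difference was 11.2 points in ikzf1, 10.7 in rag2 and 7.97 in gata3, which was at 89.4% to 89.8% in whole body and 97.4% to 97.8% in sperm. Of the 90 windows, 32 could be tested. Among these, 28 were called higher in sperm and 0 lower, against 72.3% and 1.57% of the genome's windows. The largest were in lck, and the window from 25340001 to 25341000 was at 67.9% ± 3.95 in the whole bodies and 97.1% ± 1.98 in the sperm samples (SD, n = 3). Of the 4 windows not called, 1 was that of the unmethylated run in ikzf1, at 17.2% ± 3.78 in the whole bodies and 14.8% ± 4.39 in the sperm samples (SD, n = 3).

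The loci most like each member over the 18 fish were found by the Euclidean distance of their levels, among 14673 loci at most with at least 20 shared CpGs. The nearest was ABCD2 for rag1, with a root mean square distance of 1.49 points per fish, and si:ch211-66k16.2 for rag2, at 2.27 points. It was unc13ba for ikzf1 at 0.895 points, arhgef10 for lck at 1.07, col9a2 for zap70 at 1.24 and tpm2 for gata3 at 1.02. In tpm2, the levels in mutant and wild-type whole body were 58.8% and 89.4%, and in gata3 they were 57.7% and 89.9% over the CpGs shared by the 18 fish.

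Of 46 other genes of T cell development, 36 had a locus by the same rule. They comprise transcription factors such as runx3, kinases and adaptors of T cell receptor signalling, coreceptors, cytokine and Notch signalling genes, genes of recombination and end joining, and genes of the thymic niche. In whole body, 34 could be tested, and limma called all 34 lower in the mutants, as it did 99.9% of all loci. The median difference was −29.1 points, against −28.4 over all loci. The largest difference was in cd8a, a coreceptor of cytotoxic T cells, at −40.2 points over 15 CpGs, followed by il7r, the receptor of interleukin 7, at −38.5 points over 17 CpGs. The smallest were in plcg1, a phospholipase of receptor signalling, at −20.0 points, and in notch1b, a Notch receptor, at −22.9 points.

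In G4 sperm, limma called 0 of the 36 genes, against 0.0855% of all loci lower and 0.0252% higher. An unadjusted p under 0.05 was seen in 4 of the 36, against 6.51% of all loci. The median difference was −0.094 points. The largest were in cd8a, at 93.2% ± 1.35 in the G4+ males and 88.9% ± 1.96 in the G4* males over 15 CpGs (SD, n = 3; adjusted p = 0.56 by limma), and in ptprc, the phosphatase CD45, at 96.7% ± 0.414 and 98.4% ± 0.761 over 12 CpGs (SD, n = 3; adjusted p = 0.54 by limma). The smallest were in bcl11ba and tcf3a, at −0.025 and −0.028 points. The locus of runx3, a transcription factor of the T cell lineage, was at 88.5% ± 0.305 in the G4+ males and 88.3% ± 0.149 in the G4* males over 1135 CpGs (SD, n = 3; adjusted p = 1.0 by limma), and at 77.0% ± 0.746 and 51.0% ± 0.747 in dnmt1+/+ and dnmt1 m/m whole body. The mean over this long locus does not resolve single DMRs. The authors report a hypermethylated DMR associated with runx3 in G4* sperm. Between tissues, 35 of these genes could be tested, and limma called all 35 higher in G4+ sperm than in dnmt1+/+ whole body, as it did 93.1% of all loci. The median was 8.92 points, against 8.05 over all loci.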

How the data were processed

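The authors prepared 2 libraries per fish with different kits, mapped bisulfite-converted reads to danRer10 with BWA 0.7.12, removed duplicates and merged the pair. The deposited values are the fraction of reads methylated per CpG and fish, printed here as percent, and are missing at low coverage or at a variant. The depth per CpG is not known, so no counting interval is given. Columns of the authors' comparisons in the DMR table (p-values and coefficients) were not used.

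The 6 genes, the list of 46 others and the tests were chosen with earlier results of these data known. Named genes were the 6, the nearest locus of each, and runx3 and the extremes of the list. Locus means, taken over CpGs measured in each fish compared, were tested with limma 3.58.1 (R 4.3.3) on the logit scale (offset 0.01), with Benjamini-Hochberg adjustment over all loci or 1 kb windows and FDR under 5%. Intervals at 95% allow unequal spread. A simulation lowered 200 loci by 10 points and left the others unchanged. Among these loci, limma called 152 for whole body, 143 for G4 sperm and 105 between tissues, with 6, 17 and 5 false calls. For G4 sperm, the 17 false calls are a larger share of the calls than the 5% aimed for. When all loci were lowered, nearer to the real whole body data, the calls were 198, 194 and 186. Most real tissue differences ran upward, and raised loci were not simulated. The G4 differences of the 6 genes reached only −0.995 points over shared CpGs, and changes that small were not simulated. Fish are numbered as in the columns, and any 2 fish shared an identical mean in at most 1.69% of windows. Replicate numbers were not used to pair fish in the main tests. Sequences were not used here.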

Additional observations from a re-analysis of the deposited data

How the results depend on the processing

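In whole body, all 6 genes were called lower and in the tissue comparison higher under each alternative that could be fitted, with 1 exception. With a minimum difference of 20 points, 0 genes were called between tissues, since no difference reaches it. With at least 30 CpGs per locus, rag1 and rag2 could not be tested in whole body and between tissues, nor rag2 in G4 sperm, and their CpGs outside DMRs are too few. In G4 sperm, 0 of the 6 were called under any alternative.

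Small G4 differences changed sign, with no call. With all CpGs with a value in a fish, they were 4.11 points in ikzf1, −0.072 in lck and 0.255 in rag1, and that of zap70 kept its sign but grew to −2.34 (adjusted p = 0.91 by limma). Inside DMRs, zap70 had 0.024. Outside them, gata3 had 0.0997 and ikzf1 0.0992. With DMRs at distance 0 only, ikzf1 had 0.066. When each fish was left out in turn, ikzf1 ran from −0.300 to 0.520 and lck from −0.087 to 0.402. The largest change, in ikzf1, has an adjusted p of 0.78 by limma.

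The replicate number as a block left all calls of the 6 genes as they were, but took the loci called in G4 sperm from 17 lower and 5 higher to 0 and 0. The correlation of deviations between fish with the same number was 0.0038, 0.014 and 0.023 in whole body, 0.046, 0.066 and −0.012 in G4 sperm, and 0.011, 0.025 and 0.012 between tissues. These values are small, but they were not set against those of fish with different numbers. Whether the numbers pair fish was not tested further. Leaving out each fish in turn, 1 to 9 loci were lower and 0 to 4 higher in G4* sperm, with 1 lower without the first G4+ or the first G4* male. The lower count was 3 with a minimum of 20 points, 31 inside DMRs, 1 outside them, and 10 with DMRs at distance 0. The higher count was 1 with at least 30 CpGs and 1 outside DMRs. In whole body, the 2 loci called higher became 1 with at least 30 CpGs, with all CpGs and outside DMRs, 0 with 20 points, and 1 to 3 leaving out a fish. Between tissues, the 67 loci called lower became 44 with at least 30 CpGs, 10 with 20 points, 107 with all CpGs and 33 with DMRs at distance 0, and 62 to 93 leaving out a fish. The 17041 called higher became 239 with 20 points.

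Of the windows of the 6 genes in whole body, 31 of 32 were called lower with untransformed ratios and 30 of 32 with a minimum of 20 points. Without the first dnmt1+/+ fish 35 of 36 were, and without the second mutant 32 of 33. With at least 10 CpGs per window, 16 windows of the 6 genes were tested in whole body and all 16 called lower. Between tissues, 11 of 13 were called higher, and 3 with a minimum of 20 points. In G2 sperm, the groups did not overlap in 18 of 19. The shares over all windows at these settings are not given here. With at least 5 CpGs per window they were 97.0% in whole body, 72.3% between tissues and 95.8% in G2 sperm. The median G2 difference over the 6 genes ran from −28.3 to −23.3 points leaving out each male. Over shared CpGs only, chosen after seeing the data, the 5′ end of lck differed by −24.6 points in whole body, and that of rag1 by 37.3 points between tissues. For rag1 in whole body, too few CpGs are shared. The number of CpGs with a value limits rag2 most, with 11 in whole body.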
